A study of Mus musculus with 19 samples.

Results

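The 5 genes described here store zinc, sense it or move it across membranes: the metallothioneins Mt1 and Mt2, the zinc-sensing transcription factor Mtf1, the zinc exporter Slc30a1 and the zinc importer Slc39a14. They were taken by gene symbol from 56941 genes measured by bulk RNA sequencing in cells washed from mouse airspaces. All 5 were found under 1 identifier each, and all 5 passed the filter on low counts that left 20501 genes for testing. By their labels these are alveolar macrophages, which take up inhaled particles and microbes, and no sort is described. All mice were female and 7 to 8 weeks old. The groups were ICAM-1 null mice exposed to bioparticles (n = 5), wild type C57Bl/6J mice exposed to bioparticles (n = 5), naive ICAM-1 null mice (n = 5) and naive wild type C57Bl/6J mice (n = 4). ICAM-1 lets leukocytes adhere to other cells through their integrins. Exposed mice, anaesthetised with isoflurane, aspirated 100 µL of a 2.27 mg/mL suspension of Staphylococcus aureus bioparticles in saline. Lavage followed after 1 h. Every group is listed with 2 mM EDTA, whose effect on these genes was not tested. The particles carry pHrodo, a dye that brightens in acid compartments. The sources used here do not give the background of the null line, nor whether naive mice received saline or the anaesthetic. An effect of the missing ICAM-1 and any other difference between the mouse lines cannot be told apart in the genotype comparisons. Likewise, as the treatment of naive mice is not known, effects of particles, saline and anaesthesia cannot be told apart in the exposure comparisons.

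Metallothioneins are small cysteine-rich proteins that bind zinc and copper and buffer the free metal in the cell. When cytosolic zinc rises, the factor encoded by Mtf1 binds zinc, enters the nucleus and occupies metal response elements in promoters, of which those of Mt1, Mt2 and Slc30a1 are textbook examples. Slc30a1 (ZnT1) exports zinc from the cytosol across the plasma membrane, and Slc39a14 (ZIP14) brings zinc, iron and manganese in. In macrophages, zinc handling is part of nutritional immunity, by which metal is withheld from microbes or delivered to them in excess.

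The promoters of Mt1, Mt2 and Slc30a1 are shown because they carry the core letters of the metal response element, the site that the Mtf1 product is known to bind. They come from RefSeq on the build GRCm38.p6, run 5′ to 3′ on the gene's strand from 250 bases before to 50 bases after the annotated start, and are not on the build of the expression tables. Capitals mark the core, searched as TGCACNC or TGCGCNC on both strands; a core on the opposite strand appears as its reverse complement. Mt1 (chr8:94178839-94179138, + strand), Mt2 (chr8:94172368-94172667, + strand) and Slc30a1 (chr1:191906531-191906830, + strand) read as follows.
Mt1: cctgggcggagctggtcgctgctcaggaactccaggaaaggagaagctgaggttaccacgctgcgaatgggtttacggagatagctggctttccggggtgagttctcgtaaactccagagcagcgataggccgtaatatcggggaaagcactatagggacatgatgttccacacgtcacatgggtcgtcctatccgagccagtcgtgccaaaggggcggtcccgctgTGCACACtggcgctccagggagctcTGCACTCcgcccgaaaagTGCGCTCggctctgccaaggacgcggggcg
Mt2: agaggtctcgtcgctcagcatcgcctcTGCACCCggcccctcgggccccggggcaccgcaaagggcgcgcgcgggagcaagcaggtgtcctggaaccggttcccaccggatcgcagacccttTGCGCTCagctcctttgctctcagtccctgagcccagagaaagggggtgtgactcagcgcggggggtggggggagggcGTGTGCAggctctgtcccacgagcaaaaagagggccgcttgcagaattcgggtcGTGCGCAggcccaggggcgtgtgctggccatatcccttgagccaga
Slc30a1: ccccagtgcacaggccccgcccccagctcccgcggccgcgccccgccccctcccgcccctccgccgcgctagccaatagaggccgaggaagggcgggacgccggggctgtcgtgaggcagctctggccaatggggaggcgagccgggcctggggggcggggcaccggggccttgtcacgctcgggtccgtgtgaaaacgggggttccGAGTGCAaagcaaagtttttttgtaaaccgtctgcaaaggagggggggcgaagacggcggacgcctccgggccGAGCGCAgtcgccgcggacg

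The Mt1 window held 3 cores, on the gene's strand, whose first bases lie at -23, 3 and 21 from the start. The Mt2 window held 4 cores, at -223 and -128 on the gene's strand and at -50 and 5 on the opposite strand. The Slc30a1 window held 2 cores, at -43 and 31, both on the opposite strand. Of 32851 mouse promoter windows of the same length, 25.7% held at least 1 core, 7.11% at least 2, 1.97% at least 3 and 0.517% at least 4. The Mtf1 window held no core, and Slc39a14 was not matched in the promoter table. Of the antioxidant response element core, TGACNNNGC, the Mt2 and Slc30a1 windows each held 1, as did 12.4% of windows at least once. No window of these genes held the STAT core TTCNNNGAA, which 8.3% of windows held. A match of letters is a description and shows no binding. Positions count from the annotated start used for each window. Letters outside the windows, or around any other start of these genes, were not searched, so the counts are of these windows only.

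Mt1 was an abundant transcript in naive mice, and both Mt1 and Mt2 ranked higher 1 h after exposure. Levels are in TPM (transcript abundance scaled by the authors for gene length and depth), and ± gives the SD over libraries. Mt1 averaged 2689 ± 563 TPM in exposed null mice, 1977 ± 385 in exposed wild type mice, 846 ± 103 in naive null mice and 762 ± 19.7 in naive wild type mice. Mt2 averaged 1671 ± 288, 1069 ± 235, 232 ± 46.6 and 190 ± 17.8 TPM in the same groups. The order of the group means was thus the same for both, and the neighbouring exposed groups overlapped, as did the neighbouring naive groups. Together they made up 0.436 ± 0.0849% of all TPM in exposed null mice, 0.305 ± 0.0616% in exposed wild type mice, 0.108 ± 0.0144% in naive null mice and 0.0952 ± 0.00266% in naive wild type mice. By rank of TPM among all genes, the median position of Mt2 was 71 in exposed null, 154 in exposed wild type, 610 in naive null and 838 in naive wild type libraries. Mt1 stood at a median rank of 40, 60, 156 and 180.5 in those groups.

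**Figure D1:**
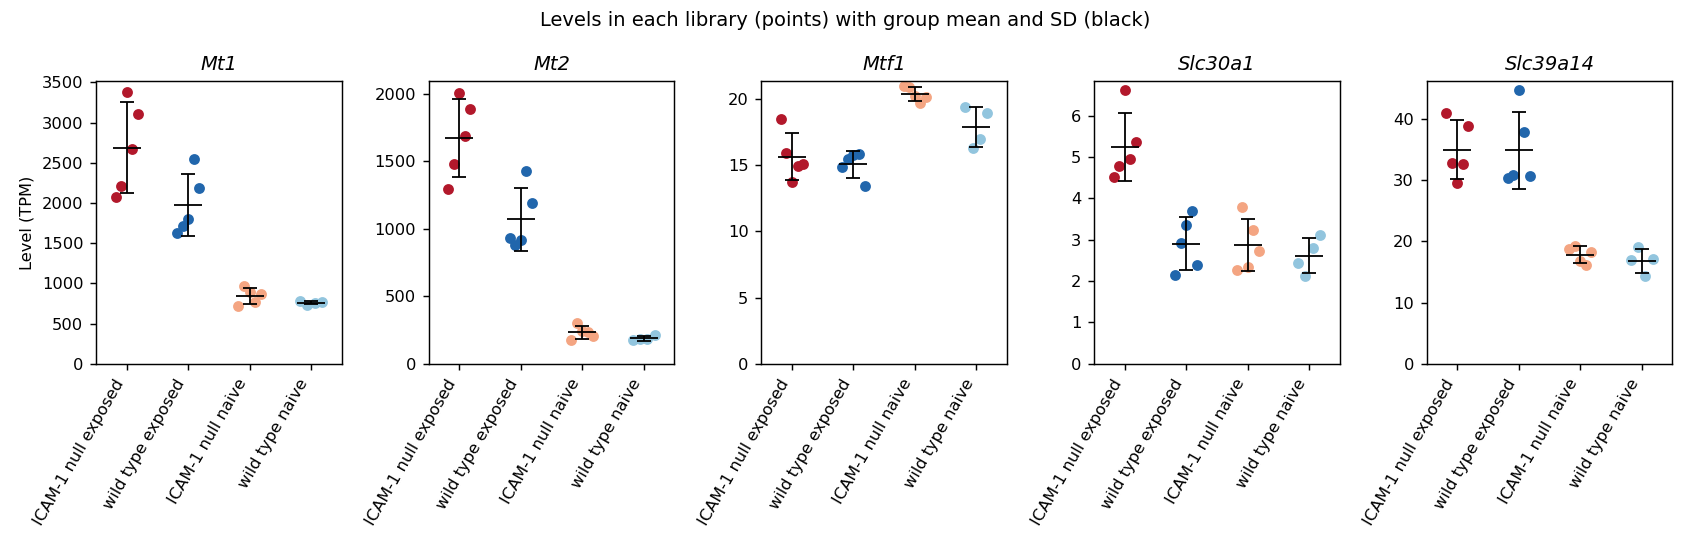
Level in TPM (vertical axis, linear, from 0) of each gene in every library, by group; points are libraries and black bars the group mean and SD. The exposed libraries of Mt1, Mt2 and Slc39a14 all lie above the naive ones, Slc30a1 stands apart in exposed null libraries (4.52 to 6.61 TPM), and Mtf1 spans 13.4 to 20.99 TPM.

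Mt1 (ENSMUSG00000031765.9, protein coding, chromosome 8, 94905710 to 94906955 on the + strand, build GRCm39) stood at 2075, 2211, 3384, 2666 and 3110 TPM in exposed null libraries 1 to 5. It stood at 713, 973, 895, 773 and 874 TPM in naive null libraries 1 to 5. All exposed libraries were above all naive ones. Changes were tested on the authors' estimated counts with edgeR's quasi-likelihood test, and a call means a Benjamini-Hochberg adjusted p under 0.05 over all 20501 genes. Mt1 rose 4.08-fold in null mice (log2 change 2.03, SE 0.143, edgeR adjusted p = 2.1e-10). Exposed wild type libraries held 1626, 1714, 1806, 2546 and 2191 TPM, and naive wild type libraries 785, 737, 759 and 766 TPM. Here too the groups were apart, and the rise was 3.39-fold (log2 change 1.76, SE 0.154, edgeR adjusted p = 8.1e-09).

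Mt2 (ENSMUSG00000031762.8, protein coding, chromosome 8, 94899292 to 94900196 on the + strand) ends 5513 bases before Mt1 begins. It stood at 1298, 1479, 2003, 1687 and 1885 TPM in exposed null libraries, against 176, 302, 242, 233 and 207 TPM in naive null libraries. This was the largest change among the 5 genes, 9.19-fold (log2 change 3.20, SE 0.170, edgeR adjusted p = 1.6e-12). In wild type mice Mt2 stood at 932, 880, 918, 1427 and 1190 TPM after exposure, against 176, 182, 184 and 216 TPM in naive mice. The rise there was 7.34-fold (log2 change 2.88, SE 0.183, edgeR adjusted p = 4.8e-11), again with no overlap. Exposed wild type libraries 4 and 5 were the highest of their group for both metallothioneins, and exposed null libraries 3 and 5 the highest of theirs.

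A long noncoding gene on the opposite strand, Gm45774 (chromosome 8, 94897376 to 94900040), overlaps Mt2, and the strand setting of the counting is not given, so their reads may be shared. Gm45774 stood at 20.5 ± 7.71 TPM in exposed null, 12.6 ± 4.80 in exposed wild type, 3.43 ± 0.857 in naive null and 2.93 ± 0.321 in naive wild type libraries, far under Mt2. Mt1 and Mt2 themselves shared 0 of their 31-base stretches (1273 and 573 in the annotated transcripts of GENCODE M21), so reads of that length can tell them apart. Mt3, another metallothionein, reached at most 1.55 TPM in any library and did not pass the test in either exposure comparison (edgeR adjusted p = 0.33 in null and 0.39 in wild type mice). Mt4 did not pass the filter on low counts.

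The metallothioneins did not move by the same factor. TPM of Mt1 over that of Mt2 was 1.60 ± 0.0738 in exposed null mice, 1.86 ± 0.0980 in exposed wild type mice, 3.70 ± 0.440 in naive null mice and 4.04 ± 0.372 in naive wild type mice. The log2 ratio was lower after exposure by 1.20 in null mice (difference -1.20, exact two-sided permutation test, p = 0.00794, adjusted over 4 comparisons 0.0159). In wild type mice the difference was -1.12 (exact permutation p = 0.0159, adjusted 0.0212). Among exposed mice, null libraries had the lower ratio, with a difference of -0.21 in log2 and no overlap (exact permutation p = 0.00794, adjusted 0.0159). These are the smallest p-values that such group sizes can give. Among naive mice the difference was -0.13 (exact permutation p = 0.254).

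**Figure D2:**
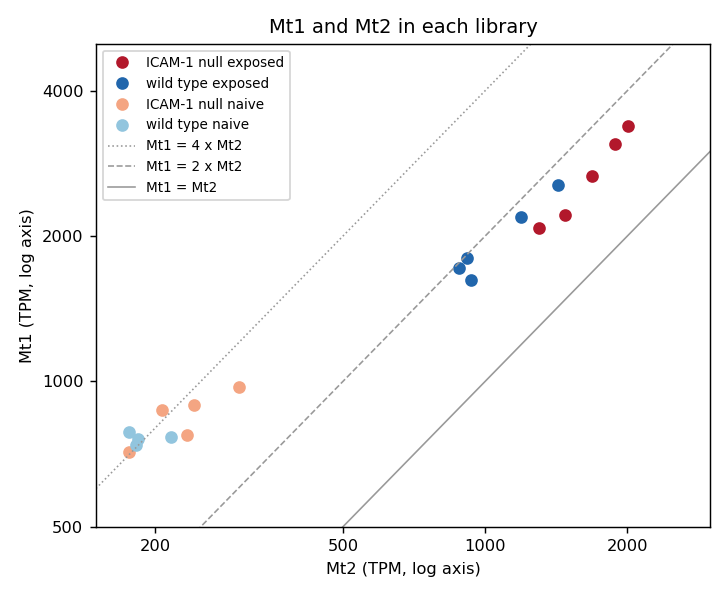
Mt1 against Mt2 in each of the 19 libraries, both in TPM on log axes, coloured by group; lines mark Mt1 at 1, 2 and 4 times Mt2. Exposed libraries lie near or below the line of 2 (mean ratios 1.60 in null and 1.86 in wild type) and naive libraries near the line of 4 (3.70 in null and 4.04 in wild type).

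Mtf1 (ENSMUSG00000028890.14, protein coding, chromosome 4, 124695897 to 124743593 on the + strand), the sensor, did not share the rise of its textbook targets. It stood at 18.5, 15.9, 13.7, 14.96 and 15.1 TPM in exposed null libraries, against 20.99, 20.9, 20.2, 19.7 and 20.2 TPM in naive null libraries. In wild type mice it stood at 14.9, 15.5, 15.8, 15.9 and 13.4 TPM after exposure, against 19.4, 16.3, 17.0 and 18.97 TPM in naive mice. On this scale every exposed library was below every naive library of its genotype. On TMM-scaled counts the log2 change was -0.09 (SE 0.0689, edgeR adjusted p = 0.31) in null mice and 0.15 (SE 0.0735, edgeR adjusted p = 0.12) in wild type mice. In wild type mice the direction depended on the scaling, and in both genotypes the size and the call did. Limma on log2(TPM + 1) gave -0.37 (adjusted p = 0.00058) in null and -0.23 (adjusted p = 0.027) in wild type mice. On that scale the median of all genes was also lower after exposure, at -0.19 in null mice and -0.22 in wild type mice, against 0.02 in both on TMM-scaled counts. Mtf1 overlaps 1110065P20Rik on the opposite strand, whose group means were 4.77 to 7.73 TPM and which passed in no comparison (smallest edgeR adjusted p = 0.29).

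Slc30a1 (ENSMUSG00000037434.8, protein coding, chromosome 1, 191638879 to 191645359 on the + strand), the exporter, is a low transcript, with 214 to 1076 estimated counts per library. It stood at 4.52, 4.77, 6.61, 4.95 and 5.37 TPM in exposed null libraries, against 2.27, 3.79, 2.35, 3.24 and 2.73 TPM in naive null libraries. The groups were apart, and the gene rose 2.32-fold (log2 change 1.21, SE 0.162, edgeR adjusted p = 2.4e-06). In wild type mice it stood at 2.16, 2.92, 3.35, 3.69 and 2.39 TPM after exposure, against 2.45, 2.12, 2.79 and 3.10 TPM in naive mice. These groups overlapped, with 2 of 5 exposed libraries above all naive ones. The count test called a rise of 1.42-fold in wild type mice (log2 change 0.50, SE 0.173, edgeR adjusted p = 0.024). That call did not hold on log2(TPM + 1), where the change was 0.10 (limma adjusted p = 0.61), nor without naive wild type library 1 (adjusted p = 0.068), naive wild type library 2 (0.094) or exposed wild type library 4 (0.079).

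Slc39a14 (ENSMUSG00000022094.16, protein coding, chromosome 14, 70540918 to 70588874 on the - strand), the importer, stood at 41.0, 32.7, 29.5, 32.6 and 38.9 TPM in exposed null libraries. Naive null libraries held 18.8, 19.2, 16.7, 16.1 and 18.3 TPM. The rise was 2.41-fold (log2 change 1.27, SE 0.0952, edgeR adjusted p = 5.3e-10), with no overlap. In wild type mice it stood at 30.3, 30.7, 44.6, 37.8 and 30.6 TPM after exposure, against 16.9, 19.1, 14.3 and 17.1 TPM in naive mice. The rise in wild type mice was 2.71-fold (log2 change 1.44, SE 0.104, edgeR adjusted p = 3.7e-10), and all exposed libraries were above all naive ones.

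Thus 4 of the 5 genes rose in null mice, where 44.8% of all genes tested changed, 21.4% upward and 23.4% downward. Likewise 4 of 5 rose in wild type mice, where 40.2% changed, 20.1% upward and 20.2% downward. The median log2 change of the 5 genes was 1.27 in null and 1.44 in wild type mice. By TPM, the exposed libraries lay wholly above the naive ones for 8% of all genes in null mice and 8.2% in wild type mice, and wholly below for 32.7% and 32%, so the position of Mtf1 on that scale was a common one. On log2(TPM + 1), limma called 2236 genes higher and 8414 lower in null mice and 2251 higher and 8402 lower in wild type mice, whereas on TMM-scaled counts similar shares rose and fell. Of the 5 genes, limma called 4 higher and 1 lower in null mice, and 3 higher and 1 lower in wild type mice.

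**Figure D3:**
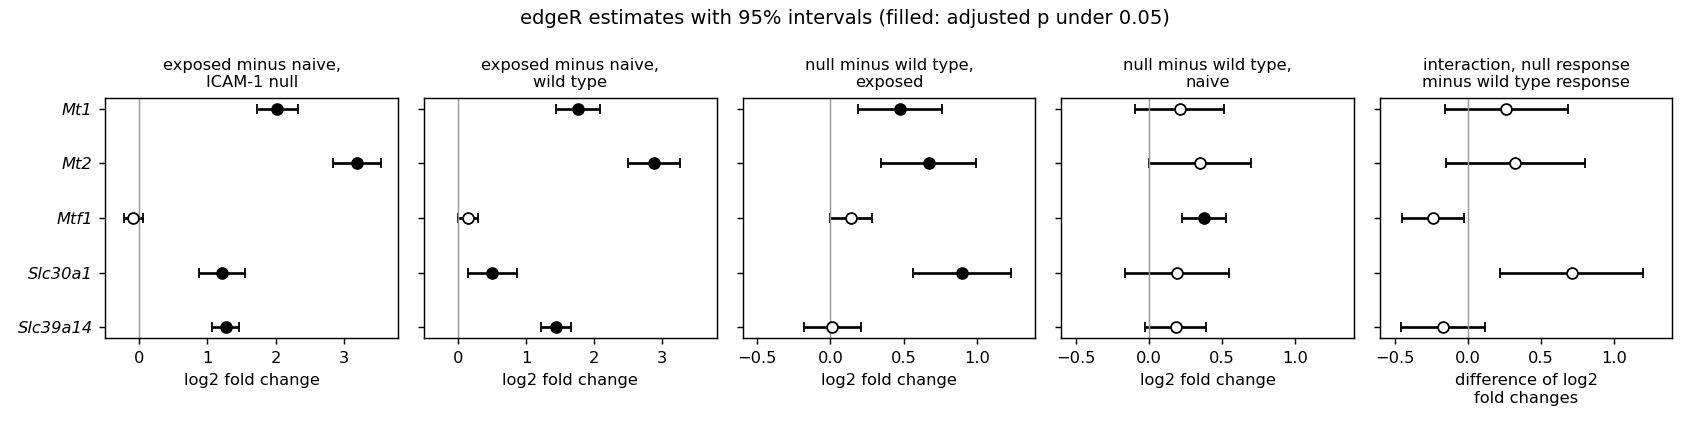
edgeR log2 fold change of each gene with its 95% interval in the 5 comparisons, TMM-scaled; filled points passed an adjusted p under 0.05. Mt2 has the largest change with exposure (3.20 in null, 2.88 in wild type), and between exposed null and exposed wild type mice Mt1, Mt2 and Slc30a1 passed while Slc39a14 lies at 0.01.

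Whether ICAM-1 null cells differed from wild type cells was asked separately after exposure and without it. After exposure, Mt1, Mt2 and Slc30a1 were higher in null than in wild type libraries, and Slc39a14 stood at nearly equal means. These are 3 of 5 genes, where 4.43% of all genes were higher in exposed null mice and 8.48% differed. By limma on log2(TPM + 1) it was 2 of 5, as Mt1 was not called. Slc30a1 showed the largest difference, 1.87-fold (log2 difference 0.90, SE 0.161, edgeR adjusted p = 0.00071), and every exposed null library was above every exposed wild type library, as for 3.03% of all genes. Mt2 was 1.59-fold higher (log2 difference 0.67, SE 0.156, edgeR adjusted p = 0.0076), with 4 of 5 null libraries above all wild type ones. Mt1 was 1.39-fold higher (log2 difference 0.47, SE 0.138, edgeR adjusted p = 0.035), with 3 of 5 null libraries above all wild type ones. The Mt1 call did not hold without any 1 of 6 libraries: exposed wild type 1, 2 or 3 and exposed null 3, 4 or 5, with adjusted p up to 0.10.

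Slc39a14 differed between exposed null and exposed wild type mice by 0.01 in log2 (95% interval -0.18 to 0.21, edgeR adjusted p = 0.97). Mtf1 differed by 0.14 (edgeR adjusted p = 0.27). Markers of other cells also differed between exposed null and exposed wild type mice, as the Mt1, Mt2 and Slc30a1 levels did. All 5 tested erythroid markers were lower in null mice (median log2 difference -2.57), and the 6 markers summed to 129 to 351 TPM in exposed null and 370 to 2399 TPM in exposed wild type libraries. The 12 epithelial markers summed to 907 to 1312 TPM in exposed null and 1594 to 3368 TPM in exposed wild type libraries, a sum in which Scgb1a1 reached 516 TPM in null and 2525 TPM in wild type mice. Of these 12, 3 were lower in null mice, 8 did not pass, and Epcam was higher (log2 difference 1.05, edgeR adjusted p = 1.4e-05). The 10 lymphocyte markers summed to 294 to 351 TPM in exposed null and 492 to 585 TPM in exposed wild type libraries, with 1 of 8 tested lower and 7 not passing. The 12 neutrophil markers summed to 125 to 189 TPM in exposed null and 86.0 to 117 TPM in exposed wild type libraries, with 4 of 8 tested higher and 2 lower. The part of other cells in the differences of Mt1, Mt2 and Slc30a1 was not tested. In bulk RNA, fewer cells of a type and less RNA per cell cannot be told apart.

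Without exposure, Mtf1 passed the test, and it is 1 of 5 genes, where 4.31% of all genes were higher in naive null mice and 6.86% differed. It stood at 20.4 ± 0.539 TPM in naive null and 17.9 ± 1.51 TPM in naive wild type libraries, with no overlap, as for 4.48% of genes in this direction. The log2 difference was 0.38 (SE 0.0736, edgeR adjusted p = 0.0019), and it was 0.18 on log2(TPM + 1) (limma adjusted p = 0.25). Within 5 Mb of Mtf1, a window chosen after its values were seen, 13.9% of tested genes differed between naive genotypes. Windows of that size gave 11.8% around Slc39a14, 6.74% around Mt1 and around Mt2, and 3.51% around Slc30a1. The log2 differences of the members other than Mtf1 in naive mice were 0.21 for Mt1 (edgeR adjusted p = 0.54), 0.35 for Mt2 (0.29), 0.19 for Slc30a1 (0.67) and 0.18 for Slc39a14 (0.39). Their libraries overlapped.

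Whether the genotypes responded differently was tested with the interaction, the log2 change in null mice less that in wild type mice. None of the 5 genes passed it in edgeR, where 0.332% of all genes (68) did. That count was 34 to 82 when 1 library at a time was left out, and 240 with DESeq2. At an unadjusted p under 0.05, edgeR gave 2 of them. DESeq2, upper-quartile scaling in edgeR and limma on log2(TPM + 1) likewise called none, with 2, 1 and 1 at an unadjusted p under 0.05. Slc30a1 had the largest estimate, 0.71 in log2 (95% interval 0.22 to 1.20, unadjusted p = 0.00637, edgeR adjusted p = 0.26). The estimates for Mt1 and Mt2 were 0.26 (interval -0.15 to 0.68, edgeR adjusted p = 0.73) and 0.32 (interval -0.15 to 0.80, edgeR adjusted p = 0.70). Those for Mtf1 and Slc39a14 were -0.24 (interval -0.45 to -0.03, edgeR adjusted p = 0.43) and -0.17 (interval -0.45 to 0.12, edgeR adjusted p = 0.76). The larger genotype difference of Slc30a1, Mt2 and Mt1 after exposure was therefore not shown to differ from that in naive mice.

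Within groups, the metallothioneins varied together. Deviations of log2(TPM + 1) from the group mean were correlated over the 19 libraries for each of 10 pairs of genes. The p-values came from 100000 permutations within groups. For Mt1 and Mt2, Pearson's r was 0.887 (permutation p = 7.0e-05, adjusted over 10 pairs 0.00070) and Spearman's rho 0.865 (adjusted permutation p = 0.0025). Without the 2 libraries farthest from the median of the first gene, here Mt1, r was 0.834. Among 14266 other genes, the highest r with Mt1 were 0.887 for Gm6863 and 0.873 for Zcchc17. An r of this size with Mt1 was therefore not particular to Mt2. With Mt2 the highest was 0.807, for Zcchc17. Slc30a1 had r of 0.640 with Mt2 (adjusted permutation p = 0.0626) and 0.580 with Mt1 (adjusted permutation p = 0.0669), neither past the threshold, and without the 2 farthest libraries these were 0.455 and 0.470. Mtf1 had r of -0.423 with Mt1 and -0.359 with Mt2 (adjusted permutation p = 0.247 for both), and without the 2 farthest libraries these were -0.434 and -0.630. Mtf1 and Slc39a14 had r of 0.528 (adjusted permutation p = 0.126), which was 0.332 without the 2 farthest libraries. TPM values of a library share a total, which the highest transcripts affect.

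The genes whose pattern was most like each member were sought among 14266 genes of at least 1 TPM. By the distance of group means on log2(TPM + 1), the nearest to Slc39a14 was Ndel1, a dynein regulator (distance 0.0188 over 4 groups), followed by Rnf11 and the protease gene Furin. Nearest to Slc30a1 was Mfsd2b, a sphingolipid transporter (0.0369), which averaged 6.96 TPM in exposed null, 3.93 in exposed wild type, 3.60 in naive null and 3.55 in naive wild type mice. Nearest to Mt2 among genes with a known product was Tubb2a, a tubulin (0.0900), after Gm47922 and 9130230L23Rik. Mt1 was nearest to Gm10425, Mir7001 and Gm15782, and Mtf1 to Fndc3a, the cohesin gene Rad21 and the ADP/ATP carrier gene Slc25a5. By the correlation of deviations within groups over 19 libraries, the first was Txnrd1, thioredoxin reductase, for Slc39a14 (r = 0.909), the phosphatase gene Dusp2 for Mtf1 (r = 0.895), Gm6863 for Mt1 (r = 0.887), Zcchc17 for Mt2 (r = 0.807) and Haus2 for Slc30a1 (r = 0.791). These are the highest of many values and carry no test.

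Zinc exporters of the SLC30 family moved mostly one way with exposure on TMM-scaled counts. Of 10 genes, 6 passed the filter, Slc30a1 among them. In null mice 4 of 6 rose and 2 did not pass, where 21.4% of all genes rose. Among wild type mice 4 of 6 rose and 2 did not pass, where 20.1% of all genes rose. On log2(TPM + 1), with the split over all genes given above (2236 higher and 8414 lower in null mice, 2251 higher and 8402 lower in wild type mice), it was 3 higher and 2 lower in null mice and 2 higher and 1 lower in wild type mice. Slc30a6, a transporter of the secretory pathway, stood at 20.0 TPM in exposed null and 11.9 TPM in naive null mice on average (log2 change 1.10, edgeR adjusted p = 7.0e-09). It stood at 20.5 TPM in exposed and 12.8 TPM in naive wild type mice (log2 change 1.09, edgeR adjusted p = 3.8e-08). Slc30a4, an exporter into vesicles, was low, with means of 0.685 TPM in exposed null, 1.48 in exposed wild type, 0.380 in naive null and 0.623 in naive wild type mice. It rose in both genotypes (log2 1.19 in null and 1.62 in wild type mice). After exposure it was lower in null than in wild type mice (log2 difference -1.08, edgeR adjusted p = 0.014), the opposite direction to Slc30a1.

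Zinc importers of the SLC39 family moved in both directions. Of 14 genes, 13 passed the filter, Slc39a14 among them. In null mice 7 rose, 3 fell and 3 did not pass, where 21.4% of all genes rose and 23.4% fell. Among wild type mice 8 rose, 2 fell and 3 did not pass, where 20.1% rose and 20.2% fell. On log2(TPM + 1) these splits were 5 higher and 4 lower in null mice and 5 higher and 3 lower in wild type mice. Slc39a2 had the highest mean TPM of the family after exposure, at 274 ± 25.9 TPM in exposed null, 215 ± 39.5 in exposed wild type, 108 ± 14.5 in naive null and 68.4 ± 7.01 in naive wild type mice. Its log2 change with exposure was 1.70 in null mice (edgeR adjusted p = 3.6e-11) and 2.03 in wild type mice (edgeR adjusted p = 1.2e-11), beyond that of Slc39a14 in size. Slc39a1, a plasma membrane importer, rose by 0.67 in null and 0.65 in wild type mice in log2, and Slc39a3 fell by 0.72 in both.

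Slc39a10, an importer that the Mtf1 product is known in mouse cells to repress, fell with exposure and was higher in null mice. It averaged 13.3 ± 2.02 TPM in exposed null, 8.21 ± 0.994 in exposed wild type, 28.9 ± 2.94 in naive null and 14.2 ± 0.890 in naive wild type mice. The log2 change with exposure was -0.76 in null mice (edgeR adjusted p = 1.0e-06) and -0.41 in wild type mice (edgeR adjusted p = 0.0024). The log2 difference of null from wild type mice was 0.74 after exposure (edgeR adjusted p = 1.3e-05) and 1.09 without it (edgeR adjusted p = 1.8e-07). In each genotype comparison 5 of the 13 importers were higher in null mice and the other 8 did not pass, where 4.43% of all genes were higher in exposed and 4.31% in naive null mice. On log2(TPM + 1) 3 importers were higher after exposure and 4 without it. Slc39a2 was among those higher, by 0.39 after exposure (edgeR adjusted p = 0.023; 0.055 by limma on log2(TPM + 1)) and 0.72 without it (edgeR adjusted p = 0.00020).

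**Figure D4:**
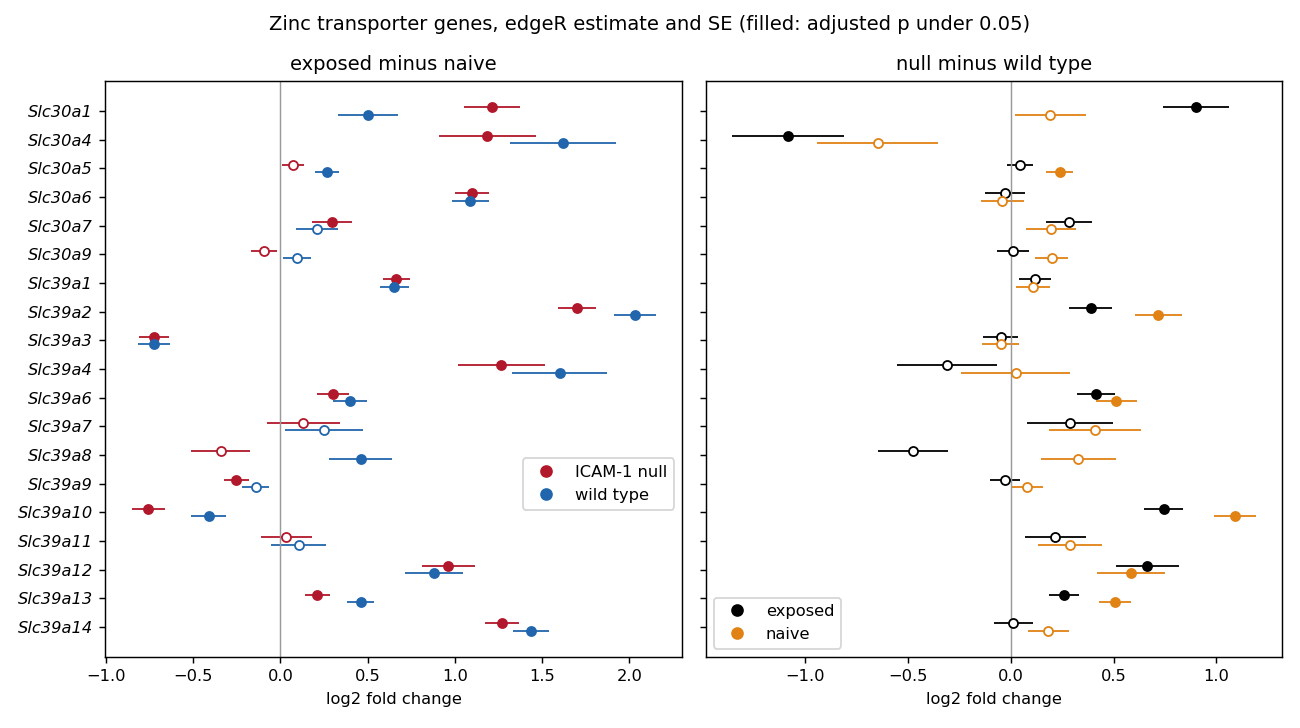
edgeR log2 fold change with SE (horizontal axis) of every SLC30 and SLC39 gene that passed the filter, for exposed minus naive (left) and null minus wild type (right); filled points passed an adjusted p under 0.05. Slc39a2 has the largest change with exposure in both genotypes, and Slc30a1 and Slc30a4 lie on opposite sides of 0 between exposed null and exposed wild type mice.

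Genes reported as metal-responsive targets of the Mtf1 product numbered 7, including Mt1, Mt2 and Slc30a1. For this and the next lists, the shares of all genes that rose and fell with exposure are again 21.4% and 23.4% in null mice and 20.1% and 20.2% in wild type mice. In null mice 3 of 7 rose and 2 fell with exposure, and in wild type mice 4 rose and 1 fell; on log2(TPM + 1) it was 3 higher and 3 lower in null mice and 2 higher and 2 lower in wild type mice. In exposed mice 5 of 7 were higher in null than in wild type mice, with a median log2 difference of 0.67, where 4.43% of all genes were higher; on log2(TPM + 1) it was 4 of 7. In naive mice 2 of 7 were higher, where 4.31% of all genes were. The 5 higher in exposed null mice include Mt1, Mt2 and Slc30a1, so the count is not separate from their results above. The median of 0.67 is the value of Mt2 itself. The others of the 5 were Slc39a10, which the Mtf1 product is known to repress, and Slc40a1. Slc40a1 encodes ferroportin, the iron exporter, and its log2 difference of null from wild type mice was 1.19 after exposure (edgeR adjusted p = 0.00018) and 1.92 without it (edgeR adjusted p = 1.2e-06). It fell by 0.71 with exposure in null mice (edgeR adjusted p = 0.0029), and its log2 change in wild type mice was 0.02 (edgeR adjusted p = 0.95). Gclc, of glutathione synthesis, had a log2 change of 0.12 in null mice (edgeR adjusted p = 0.31) and rose by 0.55 in wild type mice (edgeR adjusted p = 0.00014; 0.16 by limma on log2(TPM + 1), adjusted p = 0.20).

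Metallothioneins also bind copper, and of 10 copper-handling genes 6 rose and 1 fell in null mice, where 21.4% of all genes rose and 23.4% fell. Among wild type mice 5 of 10 rose, where 20.1% of all genes rose. On log2(TPM + 1) the splits were 3 higher and 3 lower in null mice and 2 higher and 3 lower in wild type mice. The copper importer Slc31a1 rose by 1.21 in null and 1.19 in wild type mice in log2, and Slc31a2 by 0.89 and 1.20. After exposure none of the 10 differed between genotypes in edgeR (1 at an unadjusted p under 0.05), and DESeq2 also called none.

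Other known inducers of metallothionein genes are glucocorticoids, the cytokine IL-6 acting through STAT3, and oxidative stress, in part through NRF2. Of 8 glucocorticoid-responsive genes, 2 rose, 2 fell and 4 did not pass in each genotype (on log2(TPM + 1), 2 higher and 3 lower in null mice and 2 of each in wild type mice). Sgk1 and the phosphatase gene Dusp1 rose (log2 1.26 and 2.44 in null mice, 1.52 and 3.32 in wild type mice). Tsc22d3, known as GILZ, and Cebpd fell (log2 -1.93 and -0.82 in null mice, -1.09 and -0.82 in wild type mice). Of 8 genes of the IL-6 and STAT3 axis, 5 rose and 2 fell in null mice, and 6 rose and 2 fell in wild type mice; on log2(TPM + 1) it was 4 and 2 in null mice and 5 and 2 in wild type mice. Socs3, the feedback inhibitor, rose by 5.90 in null and 5.81 in wild type mice in log2. Il6 rose by 8.49 and 6.47 and was higher in exposed null than in exposed wild type mice (log2 difference 1.16, edgeR adjusted p = 0.0032). Its naive means were near the floor, at 0.311 TPM in null and 0.522 TPM in wild type mice. Osm and Lif, which signal through the same receptor chain, were lower in exposed null than in exposed wild type mice (log2 differences -2.30 and -2.01, edgeR adjusted p = 4.3e-09 and 1.2e-06). In edgeR the interaction called 0 of these 8 genes higher and 1 lower. With DESeq2 it called 1 higher and 2 lower, and by limma on log2(TPM + 1) 0 higher and 2 lower.

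Of 8 NRF2 targets, 4 rose in null mice and 5 in wild type mice, and on log2(TPM + 1) 4 were higher and 2 lower in each genotype. Srxn1 rose by 2.47 in null and 2.74 in wild type mice in log2, Txnrd1 by 2.22 and 2.35, and Hmox1 by 0.92 and 1.54. The cystine importer Slc7a11 rose by 4.76 in null and 5.95 in wild type mice and passed the interaction test (difference -1.19, edgeR adjusted p = 0.040). That interaction was not called with upper-quartile scaling or by limma on log2(TPM + 1). Slc7a11 averaged 9.48 TPM in naive null and 3.13 TPM in naive wild type mice, and 211 and 159 TPM after exposure. In exposed mice 2 of the 8, Srxn1 and Txnrd1, were higher in null mice, by 0.31 and 0.34 in log2 (edgeR adjusted p = 0.028 and 0.027), where 4.43% of all genes were higher. Neither was called by limma on log2(TPM + 1) (adjusted p = 0.082 and 0.30). Without exposure 4 of the 8 were higher in null mice, where 4.31% of all genes were higher, and 2 were on log2(TPM + 1). Srxn1 averaged 34.0 TPM in naive null and 23.9 TPM in naive wild type mice, and Txnrd1 116 and 90.3 TPM.

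The libraries held 32.8 to 80.3 M estimated counts. All 10 alveolar macrophage markers were detected in every library, with a summed level of 20949 to 26328 TPM in exposed null, 21880 to 25893 in exposed wild type, 24733 to 27905 in naive null and 21572 to 25139 in naive wild type libraries. Chil3 alone stood at 12049 to 18660 TPM. With exposure 5 of the 10 rose and 2 fell in null mice, and 8 rose and 2 fell in wild type mice (shares of all genes as above). On log2(TPM + 1) it was 2 and 3 in null mice and 2 of each in wild type mice. In null against wild type mice 2 were higher and 2 lower after exposure, and 3 higher and 1 lower without it. Of all genes, 8.48% and 6.86% differed. In naive mice the 12 neutrophil markers summed to 170 to 185 TPM in null and 66.9 to 94.1 TPM in wild type libraries. Csf3r alone reached 105 TPM in naive null and 34.6 TPM in naive wild type libraries. Of the 8 neutrophil markers tested, 3 were higher in naive null mice and 5 did not pass. Elane was at 0 in all 19 libraries, Camp and Ngp in 17. The 12 epithelial markers summed to 960 to 1108 TPM in naive null and 1023 to 1297 TPM in naive wild type libraries, and the 6 erythroid markers to 97.7 to 352 and 134 to 410 TPM in those groups. The 10 lymphocyte markers summed to 357 to 432 TPM in naive null and 623 to 724 TPM in naive wild type libraries. In that sum Cd2 alone reached 257 TPM in naive null and 520 TPM in naive wild type libraries. Of the 8 lymphocyte markers tested, 1 was lower in naive null mice and 7 did not pass. Icam1 stood at 4.88 to 13.2 TPM in the 10 null libraries and 63.8 to 1079 TPM in the 9 wild type libraries.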

How the data were processed

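Bulk poly(A) RNA sequencing of lavage cell pellets gave 19 libraries in 4 groups. Per the submitters' processing notes, the tools named are STAR and StringTie version 2 and the build is GRCm39; the sources used here give no strand or counting options. The authors deposited estimated counts, already whole numbers and not scaled for depth, and TPM, scaled by the authors for length and depth, for 56941 genes. Totals of 32.8 to 80.3 M estimated counts exceed the 20 M reads planned per the labels. How a count relates to a fragment was not settled, so no counting interval is given. The precision of each change is given by its SE.

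The main test was edgeR 4.0.16 under R 4.3.3 on the estimated counts (two-sided quasi-likelihood F test, TMM, filterByExpr at its default minimum count of 10 and total count of 15), with all libraries in a single model with a mean per group and 5 contrasts. Adjusted p-values are Benjamini-Hochberg over 20501 genes, and intervals are 95%. Alternatives were DESeq2 1.42.0, upper-quartile scaling, no filter, at least 50 counts in 4 libraries, limma 3.58.1 on log2(TPM + 1) or log2(TPM + 0.1), the compared groups alone, a replicate block, and libraries left out. Ratios and deviations were tested by permutation over libraries (scipy 1.17.1).

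The members and lists were chosen with earlier results of these data known. Beyond the members and the marker lists, the text names at most 4 genes from each list. These have the lowest adjusted p in any exposure or genotype comparison. The text also names genes nearest to a member, up to 3 by each of 2 measures. Single marker genes, genes that overlap a member and Icam1 were named outside this rule. Nothing in the labels says that a replicate number marks a shared litter or day, or that libraries came from separate cages. The p-values of group differences weigh each difference against the spread between these libraries. Promoters came from RefSeq on GRCm38.p6, matched by symbol for 4 of 5 members.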

Additional observations from a re-analysis of the deposited data

How the results depend on the processing

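Over the 28 alternatives, the rises of Mt1, Mt2 and Slc39a14 in both genotypes, that of Slc30a1 in null mice, and the higher Mt2 and Slc30a1 in exposed null than in exposed wild type mice kept their direction and their call. Mt1 in exposed null against exposed wild type mice lost its call in 9 of 28 (adjusted p up to 0.10), Slc30a1 with exposure in wild type mice in 6 of 28, and Mtf1 in naive null against naive wild type mice in 3 of 28. With naive wild type libraries 1 to 3, the shallowest, left out together, Slc30a1 with exposure in wild type mice was 0.24 (adjusted p = 0.63) and its naive genotype difference turned to -0.056, and the lone remaining library is assumed to vary like the other groups. That setting also gave 4253 genes changed with exposure in wild type mice, 321 between naive genotypes and 10 in the interaction. The interaction count was 240 with DESeq2, 38 with no filter and 110 with limma on log2(TPM + 1). Mtf1 with exposure in wild type mice reversed to -0.23 on log2(TPM + 1) and -0.25 on log2(TPM + 0.1), and without exposed wild type library 5 it was called higher (0.20, adjusted p = 0.031). Slc39a14 in exposed null against exposed wild type mice turned to -0.0050, -0.045 and -0.0037 without exposed wild type libraries 1, 2 and 5, and to -0.037 and -0.030 without exposed null libraries 1 and 5, within a leave-one-out range of -0.045 to 0.074. The causes were not tested.

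Leaving out 1 library at a time, 8439 to 9290 genes changed with exposure in null mice, 7393 to 8355 in wild type mice, 1441 to 1709 between exposed genotypes, 1072 to 1499 between naive genotypes and 34 to 82 in the interaction. The log2 ratio of Mt1 to Mt2 then differed by -1.25 to -1.15 with exposure in null mice, -1.18 to -1.07 in wild type mice, -0.23 to -0.19 between exposed genotypes and -0.19 to -0.08 between naive ones. With TMM-scaled CPM in place of TPM, levels over naive wild type mice in log2 were, for exposed null and exposed wild type mice, 2.24 and 1.76 for Mt1 (1.82 and 1.38 by TPM), 3.55 and 2.88 for Mt2 (3.14 and 2.49), 1.41 and 0.51 for Slc30a1 (1.00 and 0.15), 1.45 and 1.44 for Slc39a14 (1.05 and 1.05), and 0.29 and 0.15 for Mtf1 (-0.20 and -0.25); Mtf1 in naive null mice was 0.38 (0.19). Same-numbered libraries of different groups did not deviate together: 0 of 27 pairs correlated above 0.1. With the replicate number as a block, 9037 genes changed with exposure in null mice, 7808 in wild type mice, 1649 between exposed and 1365 between naive genotypes and 52 in the interaction, and no call of the 5 genes changed. Slc30a1 had the fewest estimated counts of the 5 genes (214 to 1076 per library); how depth limits each gene was not measured.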
